A study of Mus musculus with 4 samples.

Results

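The cells described here were 841 C-low-threshold mechanoreceptors (cLTMRs) with a high *Th* level, out of 23691 cells deposited from mouse dorsal root ganglia (DRG). They were chosen by measured values. A cell belonged to them if it passed the filters (at least 1500 genes, at least 5000 UMIs and at most 10% mitochondrial UMIs), held *Th* at 1 CP10K or more, held a UMI of at least 2 of 5 further genes (*Cd34*, *Fam19a4*, *Wfdc2*, *Ceacam10* and *Kcnd3*), and held *Sprr1a* at no more than 1.718 CP10K. A UMI is a molecular tag that counts each captured transcript once, and CP10K is the number of UMIs of a gene per 10000 UMIs of the cell. The 4 libraries came from *Pirt-EGFPf* mice on a C57BL/6 background, heterozygous animals that carry membrane-bound EGFP in place of the *Pirt* coding region and therefore also 1 working *Pirt* copy, so that sensory neurons could be sorted by their green fluorescence. Mice of 7 to 8 weeks had both sciatic nerves loosely tied (chronic constriction injury, CCI) or were sham-operated, and lumbar DRGs were taken on day 7. Each library, named Male-Sham, Female-Sham, Male-CCI or Female-CCI, pooled 20 ganglia of 5 mice, so that male and female served as the 2 replicates of a surgery, animals within a library could not be told apart, and males and females of a litter had shared the same operation. Where 4 values are given together, they are in this order: Male-Sham (216 of the chosen cells), Female-Sham (420), Male-CCI (67) and Female-CCI (138).

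cLTMRs are unmyelinated sensory neurons of hairy skin. Their endings wrap around hair follicles and respond to gentle stroking, skin cooling and slow deformation, and their central terminals release glutamate in the inner dorsal horn. In the mouse they are recognised by tyrosine hydroxylase (*Th*), the vesicular glutamate transporter VGLUT3 (*Slc17a8*), the secreted protein TAFA4 (*Fam19a4*) and the GDNF family receptor pair *Ret* and *Gfra2*, and their development depends on the transcription factor *Runx1*. They are studied in neuropathic pain because touch becomes painful there.

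The cells chosen were deeply sequenced, with a median of 62677, 44408.5, 65325 and 55023.5 UMIs, and their summed counts per library ranged from 4098683 to 18651094 UMIs. A pair of further sets of cells served for comparison. The first was the 10631 other neurons under the same *Sprr1a* limit (a neuron being a cell with more UMIs of *Tubb3*, *Snap25* and *Uchl1* than of the glial genes *Apoe* and *Fabp7*). The second, here called *Th*-low neurons, was cells under that limit with *Th* below 1 CP10K and both *C1ql4* and *Gpx2* at 1 CP10K or more. This set did not require the neuron rule, which 156, 269, 39 and 46 of its 173, 314, 44 and 51 cells met. In 11, 30, 2 and 6 of the chosen cells, the glial genes outnumbered the neuronal ones. By a simulation-based doublet score, 17.6, 24.8, 11.9 and 8.70% of the chosen cells ranked among the likely doublets, against 14.1, 15.7, 14.1 and 13.4% of the other neurons, so that the sham libraries held the larger shares. The barcodes of 91 chosen cells also occurred in another library, but only 1 of those partner barcodes passed the filters, and no barcode was chosen in more than 1 library. *Xist*, at 0.0778, 236, 0 and 280 CPM (UMIs of a gene summed over the chosen cells and scaled to a fixed total per library), matched the sex given for each library.

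The 6 genes that the rule required to be present were well above the level of other neurons in every library, as the choice required, while *Sprr1a* was held under its limit in both sets. *Th*, the enzyme that turns tyrosine into L-DOPA, stood at 564, 518, 567 and 444 CPM in the chosen cells and at 6.23, 7.13, 5.55 and 4.62 CPM in other *Sprr1a*-low neurons. The sialomucin gene *Cd34* stood at 158, 167, 185 and 187 CPM, beside 9.04, 9.87, 5.40 and 5.06 CPM in the other neurons. *Fam19a4*, whose product modulates mechanical pain, stood at 344, 330, 344 and 397 CPM, beside 18.3, 19.9, 14.5 and 19.1 CPM. The protease-inhibitor-like gene *Wfdc2* (311, 303, 325 and 275 CPM), the adhesion gene *Ceacam10* (334, 323, 306 and 219 CPM) and the A-type potassium channel *Kcnd3* (269, 251, 272 and 294 CPM) were between 8.64 and 21.3 times the other neurons in all 4 libraries. Although 2 of these 5 genes were enough to be chosen, all 5 were present in 68.5, 67.9, 68.7 and 63.8% of the cells. In *Th*-low neurons, *Ceacam10* (384, 367, 321 and 365 CPM) and *Wfdc2* (300, 347, 264 and 281 CPM) had similar or higher levels. *Th*, *Cd34*, *Fam19a4* and *Kcnd3* were lower there in every library. These values follow from the choice and carry no test.

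Cells near the limits were as follows. With *Th* between 1 and 1.5 CP10K, 8, 26, 3 and 10 chosen cells held a mean of 21.3, 15.7, 0.304 and 2.91 CP10K of *Calca*, the gene of the pain peptide CGRP, and the mean over all chosen cells of a library ranged from 1.68 to 7.30 CP10K. Cells with *Th* between 0.5 and 1 CP10K and at least 2 of the further genes numbered 16, 46, 8 and 8, and their mean *Fam19a4* was 1.98, 1.76, 1.41 and 2.91 CP10K, against 3.25, 3.24, 3.32 and 3.84 CP10K over all chosen cells. Cells with *Th* at 1 CP10K or more but fewer than 2 of the further genes numbered 81, 115, 27 and 29, and held almost no *Fam19a4* (at most 0.0149 CP10K on average) but 34.3 to 44.2 CP10K of *Calca*.

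*Th* itself varied widely among the chosen cells, with medians of 5.28, 4.96, 6.2 and 4.13 CP10K and a highest cell at 15.9 CP10K. Cells with *Th* at 5 CP10K or more made up 53.2, 49.8, 62.7 and 39.1% of them. In every library these cells held more *Cd34* than those with less *Th*, at 169 against 146, 197 against 138, 219 against 131, and 231 against 162 CPM, and more *Slc17a8*, at 56.0 against 49.7, 62.0 against 48.7, 63.7 against 58.5, and 72.5 against 64.1 CPM. They held far less *Calca*, at 235 against 858, 353 against 1224, 136 against 848, and 69.5 against 253 CPM. The share of likely doublets was also lower in them, at 13.0 against 22.8, 12.0 against 37.4, 4.76 against 24.0, and 5.56 against 10.7%, and its part in the *Calca* values was not tested. *Calca* reached 10 CP10K in only 9.72, 11.4, 7.46 and 2.90% of the chosen cells, while the median cell held 0.760, 0.979, 0.396 and 0.631 CP10K.

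cLTMR genes outside the rule were also mostly high in the chosen cells. *Slc17a8* stood at 53.1, 55.2, 61.7 and 67.2 CPM, and at 2.71 to 3.99 CPM in other neurons. With every cell thinned to 5000 UMIs, 21.8, 25.7, 25.4 and 31.9% of the chosen cells held an *Slc17a8* UMI, against 1.23 to 2.45% of glia-dominated cells. The glia-dominated cells also held neuronal RNA, with *Calca* at 8514, 8843, 4492 and 5258 CPM, so they are not a neuron-free background. Without thinning, the shares of the chosen cells were 88.4, 83.6, 92.5 and 93.5%. The ADP receptor *P2ry1* (214, 210, 204 and 213 CPM against 14.7 to 27.3), the receptor *Gfra2* (471, 453, 413 and 432 CPM against 61.6 to 105) and the G protein regulator *Rgs10* (2494, 2283, 2562 and 2738 CPM against 602 to 828) were likewise higher than in other neurons in each library. *Ret* (388, 436, 361 and 373 CPM against 191 to 209) and *Runx1* (236, 241, 267 and 281 CPM against 149 to 156) were higher by a smaller ratio. *Piezo2*, the main touch-activated channel of sensory neurons, stood at 570, 539, 762 and 816 CPM against 142 to 176. The T-type calcium channel *Cacna1h* was only moderately higher (40.7, 37.9, 41.7 and 39.5 CPM against 21.1 to 25.3). The list also held genes that stayed low, namely *Nxph1* (at most 0.244 CPM), *Osmr* and *Lpar3* (both under 5.5 CPM), and the sodium channel *Scn10a*, which at 131, 136, 112 and 135 CPM was below the 202 to 238 CPM of other neurons.

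**Figure D1:**
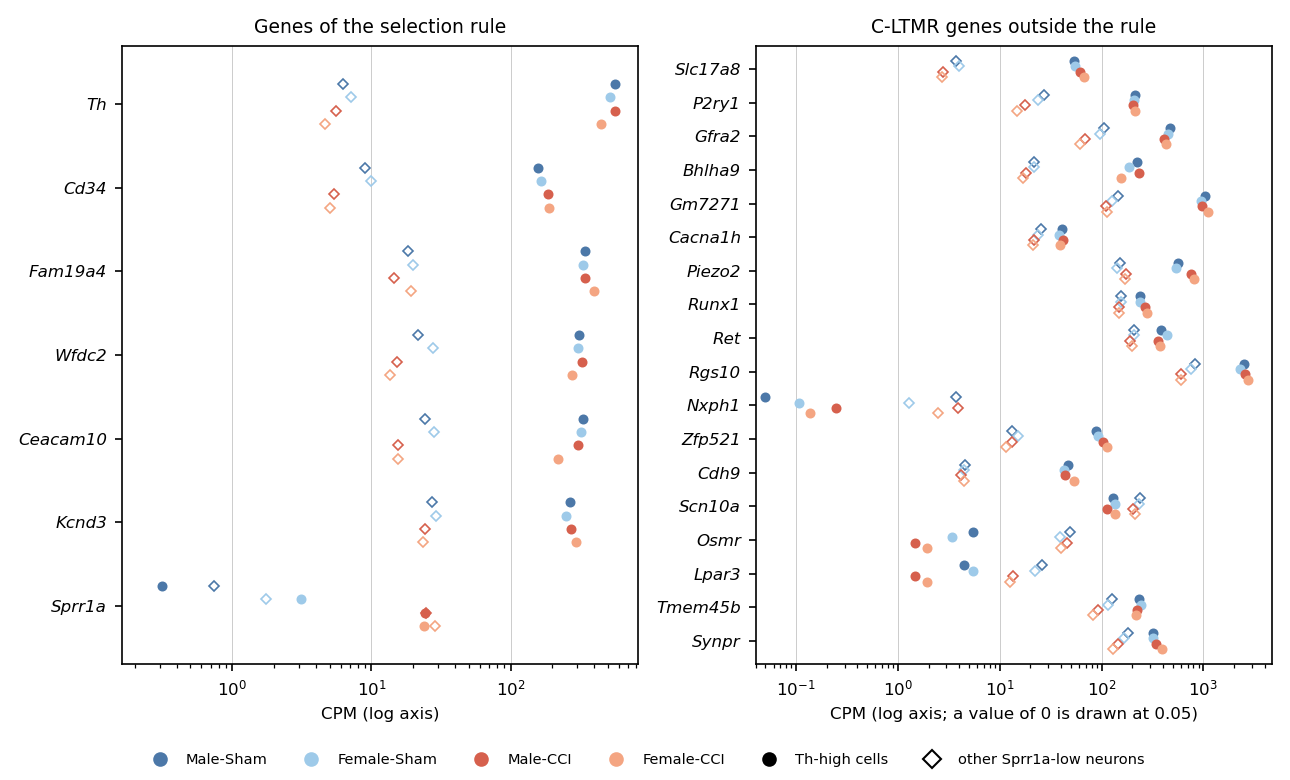
Levels of the genes used to choose the cells (left) and of 18 further cLTMR genes (right), in CPM on a log axis. Each filled circle is the sum over the *Th*-high cells of 1 library. Each open diamond is the sum over the other *Sprr1a*-low neurons of that library. For most genes the 4 circles lie close together, but those of *Sprr1a*, *Osmr* and *Lpar3* differ between surgeries. For all but *Sprr1a*, *Nxph1*, *Scn10a*, *Osmr* and *Lpar3*, the circles lie to the right of the diamonds.

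Searched without a list, 27 of the 1641 genes at 100 CPM or more in the chosen cells of every library were at least 4 times the other neurons in each of them. Outside the rule genes, the largest ratios were those of *D130079A08Rik* (10.2 to 20.2 times), the protease inhibitor *Spink2* (10.1 to 15.7 times), the G protein regulator *Rgs5* (8.78 to 11 times), the transcription factor *Bhlha9* (8.46 to 12.8 times), *P2ry1* (7.85 to 14.5 times), *Gm7271* (7.14 to 9.80 times) and the transcription factor *Tox3* (5.90 to 9.89 times). *Iqsec2*, *Ptpre*, *Rnf112*, *Fam241a*, *Necab3*, *Rarres1*, *Ccdc141* and *1110032F04Rik* completed the 15 largest, with lowest ratios between 4.60 and 5.78. Most of these genes did not separate the chosen cells from *Th*-low neurons, where *Spink2* (113, 119, 108 and 116 CPM beside 121, 122, 111 and 122 CPM), *Necab3*, *Rarres1* and *Tox3* had similar or higher levels. *Ptpre*, a receptor-type phosphatase, was lower there, at 58.6, 55.6, 80.6 and 71.2 CPM beside 122, 109, 126 and 142 CPM, and *Ccdc141* at 80.8, 79.0, 73.9 and 81.2 CPM beside 154, 141, 169 and 172 CPM.

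At the other end, 38 of the 1647 genes at 100 CPM or more in other neurons were at least 4 times lower in the chosen cells of each library. *Calca* had the lowest ratio, with 524, 798, 412 and 185 CPM beside 8410, 9414, 8541 and 9588 CPM, followed by *Tmem233*, *Tmem100*, the peptide gene *Adcyap1*, the granule protein gene *Scg2*, *Ift122*, the antioxidant enzyme gene *Gpx3*, the peptide gene *Cartpt*, *Tmem255a* and the kinase gene *Camk2a*. For all 10, the highest ratio was between 0.0847 and 0.121. *Tac1*, the substance P gene, stood at 298, 411, 269 and 308 CPM beside 2695 to 3497 CPM. These ratios describe cells that were chosen on their own counts and were not tested.

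Of the enzymes and transporters specific to catecholamines, *Th* was the only one with an appreciable level. Dopamine is made from L-DOPA by *Ddc*, turned into noradrenaline by *Dbh* and adrenaline by *Pnmt*, and loaded into vesicles by *Slc18a2*, while *Gch1* starts the synthesis of the cofactor that *Th* needs. *Th* gave 7249, 9660, 2323 and 3218 UMIs in the chosen cells, whereas *Ddc* gave 1, 0, 0 and 0, *Dbh*, *Pnmt* and the transporters *Slc6a2* and *Slc6a3* gave 0 in every library, and *Slc18a2* gave 3, 6, 1 and 2. *Gch1* was at 0.545, 0.804, 0.732 and 0.552 CPM, below the 8.59, 10.2, 10.9 and 10.6 CPM of other neurons. *Dbh*, *Pnmt* and both transporters were thus not detectable at this depth. In contrast, the later cofactor enzymes *Pts* (112, 118, 98.8 and 102 CPM), *Spr* (81.2, 78.7, 64.2 and 76.9 CPM), the cofactor-recycling enzymes *Qdpr* (107, 117, 103 and 94.3 CPM) and *Pcbd1* (390, 350, 317 and 282 CPM), and the breakdown enzyme *Maoa* (86.6, 88.6, 86.1 and 92.8 CPM) were all present. The dopamine receptors *Drd1* to *Drd5* did not exceed 0.389 CPM.

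**Figure D2:**
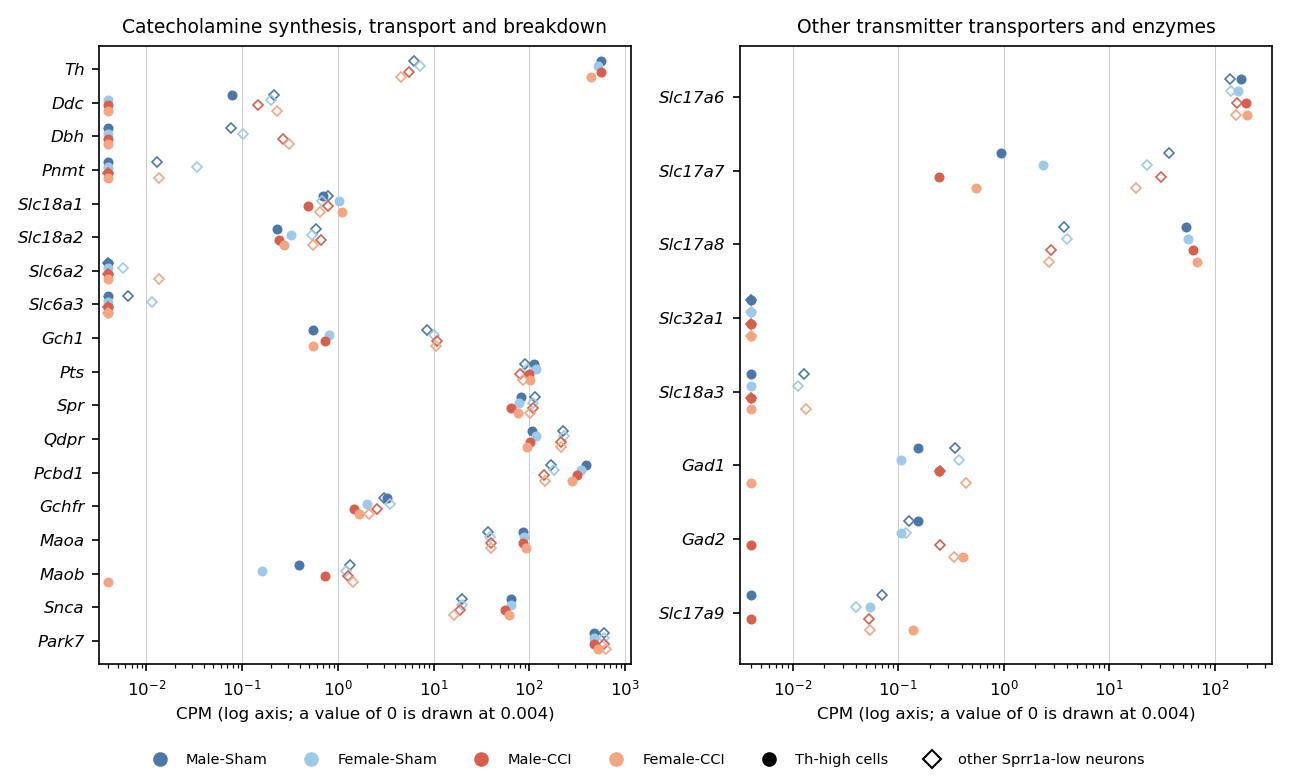
Genes of catecholamine synthesis, transport and breakdown (left) and other transmitter transporters and enzymes (right), in CPM on a log axis, with circles for the *Th*-high cells and diamonds for the other *Sprr1a*-low neurons of each library and a value of 0 drawn at the left edge. *Th* lies near 500 CPM while *Ddc*, *Dbh*, *Pnmt*, *Slc6a2* and *Slc6a3* lie at or next to 0, and *Slc17a6* and *Slc17a8* are the only vesicular transporters on the right above 3 CPM in *Th*-high cells.

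The promoters of *Th* and *Slc18a2* are shown because they share a cAMP response element, the 8 letters TGACGTCA (the same on both strands), although the transcript of the first was abundant here and that of the second nearly absent. Sequences are from RefSeq (GRCm38.p6), 5′ to 3′ on the strand of the gene, with the element in capitals. The *Th* stretch is chr7:142899996-142900245 on the minus strand, 250 bases that end just before the start of the transcript, and the *Slc18a2* stretch is chr19:59260628-59260881 on the plus strand, 254 bases that end with the element.
Th: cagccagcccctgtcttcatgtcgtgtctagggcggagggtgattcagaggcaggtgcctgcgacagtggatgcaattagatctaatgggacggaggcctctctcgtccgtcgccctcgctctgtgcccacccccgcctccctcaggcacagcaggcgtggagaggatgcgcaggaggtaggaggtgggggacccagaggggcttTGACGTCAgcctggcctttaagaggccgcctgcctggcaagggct
Slc18a2: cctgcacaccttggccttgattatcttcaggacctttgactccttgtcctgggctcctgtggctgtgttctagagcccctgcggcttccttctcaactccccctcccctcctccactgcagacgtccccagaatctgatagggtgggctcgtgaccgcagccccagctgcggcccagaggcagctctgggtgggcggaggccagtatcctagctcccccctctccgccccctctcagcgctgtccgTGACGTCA
The element covers bases -45 to -38 from the start of *Th* and bases -4 to 4 at the start of *Slc18a2*. Of 32851 promoter windows of 300 bases in RefSeq, 1.79% held these letters, and of the 20 catecholamine genes with a window only these 2 did. A match of letters is a description and not a bound site.

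Transmitter, channel and transcription factor genes were described in the same way, without a test. Besides *Slc17a8*, they expressed the glutamate transporter *Slc17a6* (175, 167, 195 and 203 CPM) at a level near that of other neurons (141 to 162 CPM), while *Slc17a7* was at 0.244 to 2.36 CPM and the inhibitory transporter *Slc32a1* at 0 UMIs. The T-type channel *Cacna1i* stood at 47.2, 44.6, 48.8 and 56.3 CPM beside 1.80 to 2.78 CPM in other neurons. Partners of *Kcnd3* in the A-type potassium current were also higher than in other neurons, namely *Kcnd1* (165, 163, 152 and 171 CPM against 61.9 to 75.7), *Kcnip4* (270, 275, 290 and 322 CPM against 109 to 133) and *Dpp10* (230, 223, 211 and 233 CPM against 39.0 to 60.5). *Fgf12*, an intracellular modulator of sodium channels, stood at 624, 550, 680 and 717 CPM beside 139 to 166 CPM, and its relative *Fgf13* was lower than in other neurons (255, 304, 246 and 221 CPM against 728 to 828). Among transcription factors, *Zfp521* (88.8, 92.9, 103 and 114 CPM against 11.4 to 15), *Casz1* (230, 219, 271 and 276 CPM against 46.8 to 59.6) and *Pou4f2* (81.7, 81.6, 64.7 and 77.3 CPM against 7.02 to 11.7) were higher in each library, while *Runx3*, *Shox2* and *Mafa*, which mark other sensory lineages, did not exceed 0.976 CPM.

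The *Th*-high cells formed a smaller share of all neurons in the CCI libraries. They were 205 of 3253 neurons in Male-Sham (6.30%, 95% exact binomial interval 5.49 to 7.19%), 390 of 5357 in Female-Sham (7.28%, 6.60 to 8.01%), 65 of 3065 in Male-CCI (2.12%, 1.64 to 2.70%) and 132 of 3813 in Female-CCI (3.46%, 2.90 to 4.09%). Both CCI shares were below both sham shares. The means were 6.79% ± 0.692 after sham and 2.79% ± 0.948 after CCI (SD, n = 2 libraries each), a difference of -4.0 percentage points with an exact two-sided permutation p of 0.333, the smallest p that 2 against 2 libraries allow. The intervals cover counting error only.

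The denominator changed with surgery as well. Neurons over the *Sprr1a* limit, which the rule leaves out, were 2.15, 4.20, 56.0 and 53.8% of all neurons. Of the neurons that stayed under the limit, the *Th*-high cells were 6.44, 7.60, 4.82 and 7.50%, where Female-CCI lay between both sham libraries, and the difference of -0.859 points had an exact permutation p of 0.667. Cells with every other mark of the rule but *Sprr1a* over the limit were rare, 1 of 217, 11 of 431, 4 of 71 and 9 of 147. Because the rule uses *Th* and *Sprr1a*, fewer such cells and a loss of *Th* or a gain of *Sprr1a* in the same cells cannot be told apart. *Th*-low neurons were 4.90, 5.24, 2.89 and 2.61% of the neurons under the limit.

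**Figure D3:**
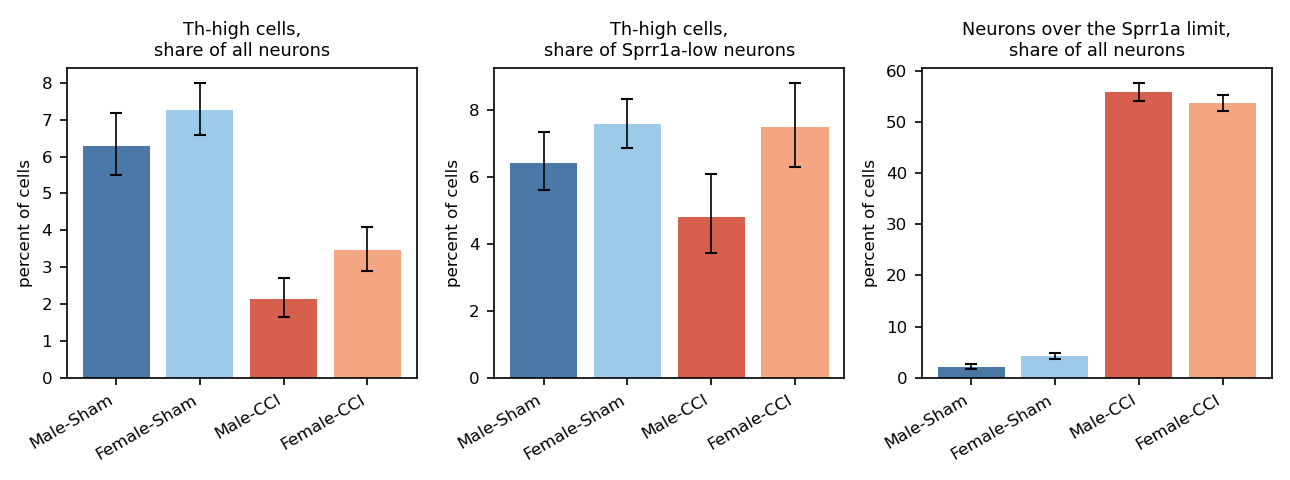
Share of *Th*-high cells among all neurons (left) and among neurons under the *Sprr1a* limit (middle), and share of neurons over that limit (right), in percent per library, with 95% exact binomial intervals for counting error. Both CCI bars are lower than both sham bars on the left, the middle bars overlap between surgeries, and on the right more than 50% of neurons in both CCI libraries lie over the limit.

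CCI was compared with sham on the UMIs summed over the chosen cells of each library, with the edgeR quasi-likelihood test. A gene was called changed at an adjusted p (Benjamini-Hochberg) under 0.05 and a log2 change above 0.5 in size. Of 12096 genes tested, 192 were called (1.59%), 66 higher (0.546%) and 126 lower (1.04%) after CCI. Of the 192, 103 were under 20 CPM in both groups. Most calls were lost without Female-CCI, among them those of *Eif2ak2*, *Tes*, *Thsd7a*, *Mt3*, *Crip1* and *Hjurp*. All 191 called genes tested there kept their direction. The only CCI library left there was Male-CCI with 67 chosen cells, so less depth and a dependence on Female-CCI cannot be told apart. As litter followed surgery, differences between litters cannot be told apart from the effect of CCI.

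Cells of both surgeries had to meet the same limits on the 7 genes of the rule, so their levels are given only as a description. *Th* had a log2 change of -0.13 ± 0.11 (SE), *Fam19a4* of 0.11 ± 0.07, *Kcnd3* of 0.10 ± 0.07 and *Cd34* of 0.17 ± 0.07, beside a median of -0.0005 over all genes tested. Of the 17 cLTMR genes outside the rule that were tested, 0 were called higher (0.546% of all genes) and 2 lower (1.04% of all genes), both among the weakly expressed ones, with a median log2 change of 0.02. *Slc17a8*, *P2ry1*, *Gfra2*, *Ret*, *Rgs10* and *Runx1* had log2 changes from -0.19 to 0.23, none with an adjusted p under 0.05. None of the 12 catecholamine genes tested was called, and the largest deviation among those over 20 CPM was *Pcbd1*, at -0.33 ± 0.07 with an adjusted p of 0.015, which is below the size limit.

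*Piezo2* was higher after CCI but just short of the size limit. Its level was 570 and 539 CPM in the sham libraries and 762 and 816 CPM in the CCI libraries, which did not overlap. The log2 change was 0.48 ± 0.06 with an adjusted p of 0.00042 in edgeR, and it ranged from 0.41 to 0.54 over 18 alternative settings. The median cell held 5.33, 5.21, 7.54 and 8.03 CP10K. In other neurons the log2 change was 0.21, and the difference between both changes, 0.24, had an adjusted p of 0.078. Among the 14 mechanosensory channel genes tested, none was called, with a median log2 change of -0.12. Of 14 sodium channel genes, only the auxiliary subunit *Scn4b* was called, at 34, 26.3, 19.8 and 19.5 CPM (log2 -0.64 ± 0.14, adjusted p = 0.012), and it was no longer called with likely doublets left out (-0.55, adjusted p = 0.21). Its call was also lost with 0 *Sprr1a* UMIs, *Th* at 5 CP10K or more, equal cell numbers or shared barcodes left out. The same held without Male-CCI, Female-CCI or Male-Sham. None of 13 calcium channel, 27 potassium channel and 4 HCN channel genes was called. Over all genes tested 1.59% were called, so in groups this small such counts do not set the channel genes apart. *Scn9a*, at 491, 415, 540 and 561 CPM, had a log2 change of 0.26 and an adjusted p of 0.053.

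The 10 genes named by size among those called higher included a long noncoding RNA and splicing-related genes. *Meg3*, a long noncoding RNA, rose from 2544 and 2371 CPM to 4225 and 4751 CPM (log2 0.84 ± 0.07, adjusted p = 3.8e-06), with every CCI library above both sham libraries. *Eif2ak2*, the interferon-induced kinase PKR, rose from 11.4 and 14.6 CPM to 23.4 and 28.7 CPM (log2 0.99 ± 0.15, adjusted p = 0.0014). The neuron navigator gene *Nav2* rose from 17.1 and 17.4 CPM to 31.2 and 29.8 CPM (log2 0.79 ± 0.12). The splicing-related genes *Pnisr* and *Arglu1* rose by 0.62 to 0.67 on the log2 scale, as did *Fam114a2*, the focal adhesion gene *Tes* and *Thsd7a*, with adjusted p-values from 0.00016 to 0.001. An unnamed transcript, *Gm8797*, was also among them, at 10.7, 9.87, 68.8 and 52.9 CPM. All of these also moved in the same direction in other neurons of the same libraries, by 0.62 for *Meg3*, 1.09 for *Eif2ak2*, 0.49 for *Nav2* and 2.28 for *Gm8797*, where the last had changed by 2.52 in the chosen cells.

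The genes named by size among those called lower included a metallothionein and subunits of the mitochondrial energy chain. *Mt3*, a neuronal metallothionein, fell from 627 and 791 CPM to 339 and 298 CPM (log2 -1.18 ± 0.14, adjusted p = 0.013), with no overlap between surgeries. *Crip1*, a zinc-binding LIM protein gene, fell from 33.8 and 33.4 CPM to 21.0 and 13.8 CPM (log2 -1.04 ± 0.15), and *Rapsn*, known for clustering acetylcholine receptors, from 19.4 and 22.0 CPM to 8.78 and 8.56 CPM (log2 -1.29 ± 0.16). *Usmg5*, a subunit of the ATP synthase complex, fell from 679 and 778 CPM to 460 and 373 CPM (log2 -0.84 ± 0.11), the mitochondrial gene *mt-Nd4l* from 357 and 414 CPM to 227 and 233 CPM (log2 -0.77 ± 0.08), and the centromere chaperone gene *Hjurp* from 19.5 and 24.1 CPM to 11.7 and 14.5 CPM (log2 -0.74 ± 0.16). In other neurons *Mt3* changed by -0.80, *Crip1* by -0.60, *Usmg5* by -0.75, *mt-Nd4l* by -0.68 and *Hjurp* by -1.11. *Iqsec2*, a synaptic exchange factor gene and among the 15 largest ratios above, fell from 338 and 313 CPM to 228 and 209 CPM (log2 -0.61, adjusted p = 0.00016) and kept 5.78 to 6.67 times the level of other neurons, which fell too.

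**Figure D4:**
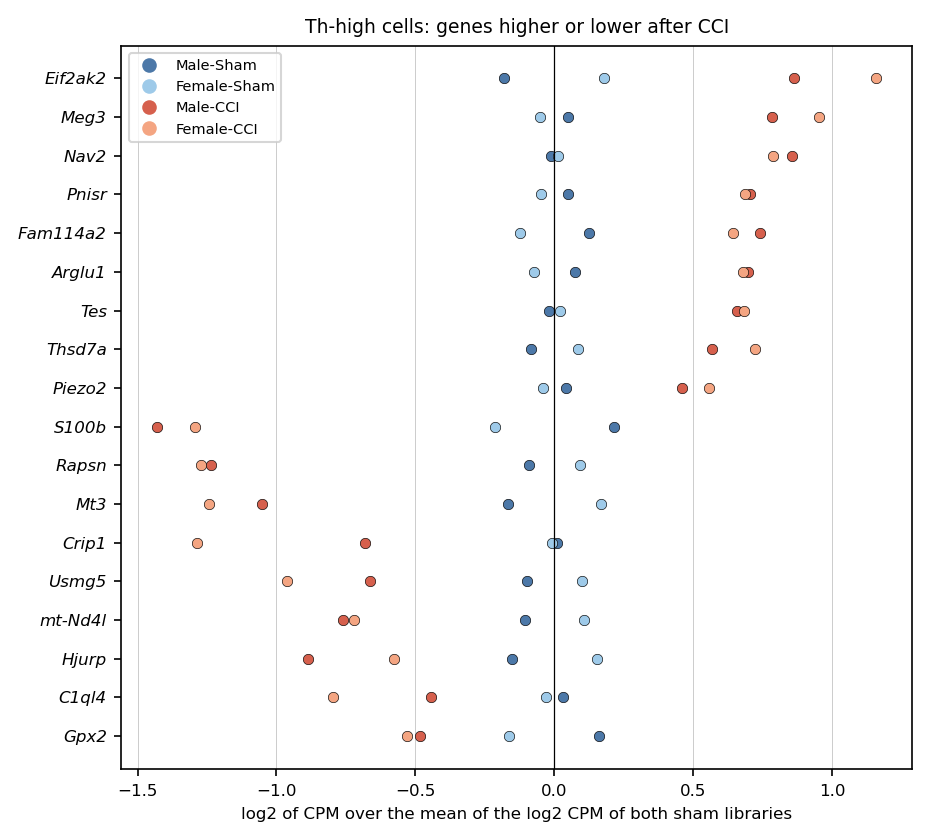
Change of named genes in the *Th*-high cells, as the log2 of the CPM of each library (points, by colour) over the mean log2 CPM of both sham libraries. The CCI points of every gene lie on the same side of both sham points, from *Eif2ak2* at the top to *Gpx2* at the bottom, and *Piezo2* is included although its change is below the size limit.

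In groups of general cell function other than the immediate early genes, the shares called were above the 1.59% of all genes, though most members were not called. Of 77 ribosomal protein genes tested, 6 were called higher (0.546% of all genes; among them *Rpl12*, *Rps12*, *Rps15*, *Rpl23a* and *Rpl17*, log2 0.52 to 0.57) and 3 lower (1.04% of all genes; *Rpl41*, *Rpl36al* and *Rps28*, log2 -0.54 to -0.73), with a median of -0.02. In other neurons the 5 higher genes named here changed by 0.49 to 0.55 and the 3 lower ones by -0.41 to -0.57. Of 76 nuclear-encoded respiratory chain and ATP synthase genes, 0 were called higher and 4 lower (*Atp5e*, *Ndufa1*, *Ndufa3* and *Ndufv3*), with a median of -0.18. In other neurons the median was -0.19, and *Ndufa1* and *Ndufa3* were also called lower, but not *Atp5e* or *Ndufv3*. Of 13 genes of the mitochondrial genome, *mt-Nd2* and *mt-Nd3* were called higher and *mt-Nd4l* lower, and each was called in the same direction in other neurons. None of 10 immediate early genes was called, and of 18 heat shock and stress genes only *Hspa1b* was (37.6, 46.2, 26.8 and 28.6 CPM, log2 -0.62 ± 0.12, adjusted p = 0.0061). The call of *Hspa1b* was lost with 0 *Sprr1a* UMIs, the higher *Th* limit, doublets removed or equal cell numbers, and without Male-CCI, Female-CCI or Female-Sham.

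Several genes at a low level in the chosen cells were called lower after CCI. *S100b* was at 52.6, 39.0, 16.8 and 18.5 CPM (log2 -1.37 ± 0.16, adjusted p = 0.0014) beside 253 to 349 CPM in other neurons. *Trpv1*, the capsaicin receptor, was at 16, 19.1, 9.03 and 4.0 CPM (log2 -1.59 ± 0.29) beside 130 to 156 CPM, and the transcription factor *Etv1* at 5.21, 5.04, 0.976 and 1.79 CPM (log2 -1.80 ± 0.34) beside 66.6 to 108 CPM. The opioid peptide gene *Penk* (log2 -1.68 ± 0.37), *Osmr* (-1.32 ± 0.37) and *Lpar3* (-1.53 ± 0.33) were at most 8.69 CPM in any library. Peptidergic markers moved with these genes, their summed level being 883, 1278, 733 and 518 CPM, as did the share of likely doublets given above. With likely doublets left out, *S100b* had a log2 change of -0.70 (adjusted p = 0.85), *Etv1* of -0.43 (0.72), *Trpv1* of -0.99 (0.12), *Penk* of 0.40 (0.74), *Osmr* of -0.19 (0.90) and *Lpar3* of -0.51 (0.54), none of them called. With only the cells at 10 CP10K of *Calca* or more left out, *Trpv1* (-1.87), *Penk* (-1.65) and *Lpar3* (-1.64) were still called, and *S100b* (-0.19), *Etv1* (-0.60) and *Osmr* (-0.49) were not.

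*C1ql4* and *Gpx2*, by which the *Th*-low neurons were chosen, were also lower after CCI in the *Th*-high cells. *C1ql4*, a synaptic C1q-like protein gene, was at 160, 154, 115 and 90.4 CPM (log2 -0.65 ± 0.10, adjusted p = 0.0019), and *Gpx2*, a glutathione peroxidase gene, at 77.9, 62.2, 49.8 and 48.2 CPM (log2 -0.54 ± 0.10, adjusted p = 0.0081). Both CCI libraries were below both sham libraries for each gene. The call of either gene was lost in cells without any *Sprr1a* UMI (log2 -0.44 and -0.27), with shared barcodes left out (-0.60 and -0.61), with equal cell numbers (-0.64 and -0.45) and without Female-CCI (-0.47 and -0.51). That of *Gpx2* was also lost in cells with *Th* at 5 CP10K or more (-0.26), without Male-CCI (-0.56) and without Male-Sham (-0.38).

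Few nerve injury genes were called in the chosen cells. Of 40 such genes, 36 were tested and 2 were called higher, beside 0.546% of all genes tested, and 0 lower; the median log2 change was 0.31. *Ecel1*, an endopeptidase-like gene of injured neurons, was at 0.233, 0.804, 3.42 and 5.52 CPM, or 3, 15, 14 and 40 UMIs, with both CCI libraries above both sham libraries (log2 3.0 ± 0.49, adjusted p = 0.0017), and its call was lost without Female-CCI (2.57, adjusted p = 0.15), without a limit on *Sprr1a* (2.36, adjusted p = 0.17) and in cells with 0 *Sprr1a* UMIs. *Flrt3*, an adhesion gene, was at 5.06, 7.61, 14.6 and 10.2 CPM (log2 0.87 ± 0.23, adjusted p = 0.047), a call that most alternative settings did not keep. The transcription factor *Atf3* was at 22.7, 36.9, 65.4 and 42.7 CPM (log2 0.76 ± 0.45, adjusted p = 0.54) and *Sox11* at 17.1, 23.9, 47.1 and 30.2 CPM (0.82 ± 0.33, adjusted p = 0.34), where the CCI libraries were higher but differed from each other. The growth cone gene *Gap43*, at 78.6, 96.5, 121 and 54.7 CPM, overlapped between surgeries. Since the rule removed every cell over the *Sprr1a* limit, these values hold for cells that stayed under it.

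*Sprr1a* was found in 1.85, 6.90, 68.7 and 69.6% of the chosen cells before thinning and in 0, 1.19, 11.9 and 12.3% at 5000 UMIs. Beside them stood 0.311, 1.42, 23.9 and 29.1% of glia-dominated cells, which also held neuronal RNA. The limit on *Sprr1a* applied to the chosen cells and not to the glia-dominated ones, so nothing is read from their order. The peptide gene *Gal* was in 5.56, 9.29, 19.4 and 26.1% of the chosen cells at 5000 UMIs, below the 53.6 to 72.2% of glia-dominated cells, and stood at 44.0, 45.1, 66.1 and 54.9 CPM beside 319, 361, 521 and 680 CPM in other neurons. Its log2 change of 0.40 ± 0.09 was under the size limit.

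In the other neurons under the same *Sprr1a* limit, 871 of 16319 genes were called (5.34%), 3.68% higher and 1.66% lower, beside 35.2% at an unadjusted p under 0.05. Of the 40 injury genes, 26 were called higher, with a median log2 change of 0.94. The list includes genes that the study named for injured neurons of these same libraries, such as *Fgf3*, *Tgfbi*, *Tnfrsf12a*, *Sema6a* and *Ecel1*. Their rise after CCI in the other neurons was thus partly fixed by the choice of list. All counts of injury genes in this comparison carry that limit and are a description. Both comparisons share libraries, and the sums of the other neurons hold far more UMIs. Of 36 injury genes fitted in both, the log2 change was lower in the *Th*-high cells for 33. The difference between both changes was tested as an interaction, with the library as a block. Of 15475 genes, 83 were called (0.536%). In the *Th*-high cells, the signed log2 change was higher for 22 of them (0.142%) and lower for 61 (0.394%). With the other neurons drawn to the number of chosen cells in each library, 0 genes were called by edgeR (1129 at an unadjusted p under 0.05), so the count depended on the number of cells in the comparison set.

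**Figure D5:**
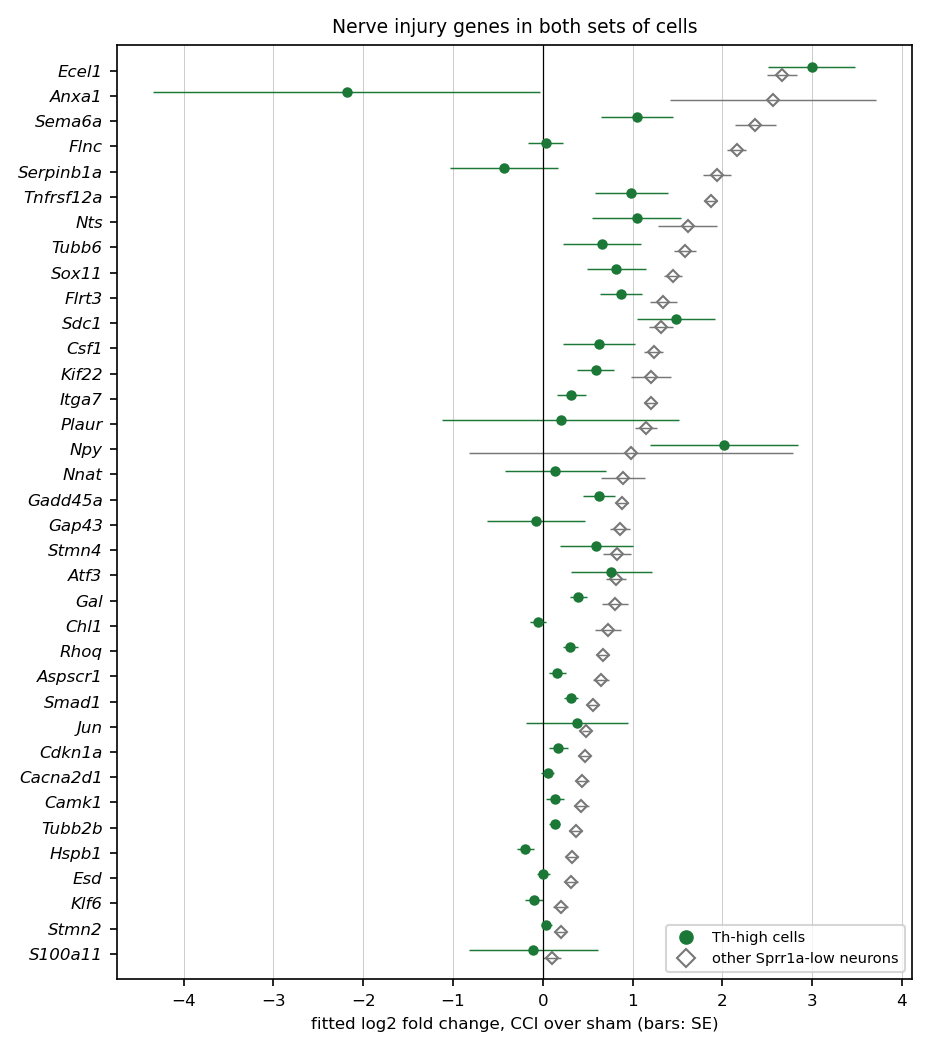
Fitted log2 change after CCI of the 36 nerve injury genes tested in both sets, with circles for the *Th*-high cells, diamonds for other *Sprr1a*-low neurons and bars for the standard error. All diamonds lie above 0, 29 circles do, and 33 circles lie to the left of their diamond, with *Ecel1*, *Sdc1* and *Npy* as the exceptions.

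Of the injury genes, 5 were among those with a lower log2 change in the *Th*-high cells and 0 among those with a higher one. *Flnc*, a filamin gene, stayed at 10.2, 9.70, 12.9 and 8.56 CPM in the *Th*-high cells while it went from 1.40 and 1.31 to 6.10 and 6.11 CPM in other neurons (difference of log2 changes -2.17, adjusted p = 0.0011). The adhesion gene *Chl1* (41.0, 42.6, 42.7 and 39.9 CPM, difference -0.84, adjusted p = 0.0098), the small heat shock gene *Hspb1* (1664, 1536, 1576 and 1270 CPM, -0.57, 0.0012), the integrin gene *Itga7* (-0.94, 0.022) and *Anxa1* (-4.85, 0.0009) made up the 5 injury genes called. The irritant receptor *Trpa1* stayed at 16.8, 17.6, 16.6 and 17.8 CPM while other neurons went from 27.5 and 31.1 to 44.1 and 66.6 CPM (-1.0, adjusted p = 0.0062), and *Calcb* had a difference of -0.55 (0.0017). In cells with 0 *Sprr1a* UMIs, the calls of *Hspb1*, *Itga7* and *Anxa1* were lost. Those of *Chl1*, *Hspb1*, *Itga7*, *Trpa1* and *Calcb* were lost without Female-CCI, and that of *Anxa1* with doublets removed. *Cx3cr1*, *Fam210b* and *Ddr2*, also among the 5 lowest differences with *Anxa1* and the unnamed *Gm525*, were at most 3.81 CPM in the chosen cells.

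The named genes with a higher log2 change in the *Th*-high cells were lower after CCI in the other neurons. *Kif23* was also called higher within the *Th*-high cells (log2 0.65 ± 0.17, edgeR adjusted p = 0.035), a call lost with doublets removed and in several other settings. *Slc17a8* had a log2 change of 0.23 in the chosen cells and of -0.50 in other neurons (difference 0.70, adjusted p = 0.021). *Cd34*, a gene of the rule, was at 0.17 and -0.87, which is given only as a description. *Prss23*, a serine protease gene, was at 79, 60.5, 67.8 and 52 CPM beside 4.64, 3.83, 2.05 and 1.79 CPM (difference 0.87 ± 0.13, adjusted p = 0.0071). The growth factor gene *Bmp15* (17.7, 20.6, 22.9 and 17 CPM beside 1.38, 1.53, 0.622 and 0.645 CPM, difference 1.19 ± 0.24) and the kinesin gene *Kif23* (7.47, 9.11, 12.4 and 14.1 CPM, difference 1.34 ± 0.25) completed the named genes, with the unnamed *Gm16364*. The same direction held for the channel partner *Kcnip2* (difference 0.61) and the transcription factor *Casz1* (0.55). Apart from *Gm16364*, these genes were at least 2 times higher in the *Th*-high cells of every library, and the other neurons held fewer *Th*-low neurons after CCI, whose part in the falls was not tested. With *Th* at 5 CP10K or more, the calls of *Slc17a8*, *Bmp15* and *Casz1* were lost, and that of *Slc17a8* also with 0 *Sprr1a* UMIs. Those of *Slc17a8*, *Prss23*, *Bmp15*, *Kif23* and *Kcnip2* were lost without Female-CCI.

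Against *Th*-low neurons, 31 of 12202 genes were called (0.254%). In the *Th*-high cells, the signed log2 change was higher for 8 of them (0.0656%) and lower for 23 (0.188%). Within the *Th*-low neurons, 218 of 11305 genes were called after CCI (1.93%), and 18.8% had an unadjusted p under 0.05. *C1ql4*, at 418, 424, 453 and 355 CPM in the *Th*-low neurons, and *Gpx2*, at 341, 299, 302 and 338 CPM, had differences of -0.54 and -0.52, but both genes had chosen those neurons. The auxiliary channel subunits *Scn4b* (89.1, 76.9, 85.8 and 81.2 CPM in *Th*-low neurons, difference -0.61, adjusted p = 0.03) and *Cacna2d2* (63.1, 61.4, 77.4 and 65 CPM, difference -0.59, adjusted p = 0.014) had a lower log2 change in the *Th*-high cells. So did *Serpinb1a*, *Bcl3*, *Epn3*, *S100a16* and *Anxa1*, all at most 14.7 CPM in the *Th*-high cells. *Xlr3b*, *Bex1*, *Bmp15*, *Smim5* and *Calca* were among the 8 with a higher log2 change, where a weaker fall also counts as higher. In cells with 0 *Sprr1a* UMIs, 21 genes were called and only 4 of the 31 were among them, *Serpinb1a* being the one named here. The call of *Scn4b* was also lost without Male-CCI, Female-CCI or Male-Sham, and that of *Cacna2d2* without Female-CCI. *Th*-low neurons numbered 173, 314, 44 and 51, so the CCI sums there rested on few cells.

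Sex was compared with surgery as a term in the same test. Of 12096 genes, 10 were called (0.0827%), 5 higher (0.0413%) and 5 lower (0.0413%) in females, beside 472 (3.9%) at an unadjusted p under 0.05. Of these, 6 lie on the sex chromosomes: *Xist* and *Eif2s3x* (37.6, 69.5, 40.3 and 70 CPM) were higher in females, and *Ddx3y*, *Eif2s3y*, *Kdm5d* and *Uty* gave 0 UMIs in both female libraries. *Fbp2*, a muscle-type fructose bisphosphatase gene, was lower in females, at 105 CPM against 61.4 CPM after sham and 110 CPM against 72.6 CPM after CCI (log2 -0.69 ± 0.07, adjusted p = 0.0067). The interferon-induced gene *Ifit1* was higher in the female of each surgery, at 11.4 against 31.1 and 49.3 against 93.7 CPM (log2 1.18 ± 0.13, adjusted p = 0.0073). *Ly86* (6.69, 26.6, 0.732 and 9.25 CPM) and *Anxa1* (0.70, 6.59, 0 and 1.38 CPM) were higher in females at low levels, and *Ly86* was at 188 to 279 CPM in other neurons. The calls of *Ifit1* and *Ly86* were lost with doublets removed, with the higher *Th* limit, with equal cell numbers, without a term for surgery and when any 1 library was left out. Those of *Fbp2* and *Anxa1* were lost with equal cell numbers, without a term for surgery and without Male-Sham, Female-Sham or Male-CCI. That of *Anxa1* was also lost with DESeq2, doublets removed, the higher *Th* limit or shared barcodes left out. The sex fits with 1 library left out also had no term for surgery. Losses there cannot be assigned to the library rather than to the missing term. *Bhlha9*, at 225, 184, 233 and 155 CPM, was lower in the female of each surgery without passing the test (log2 -0.41 ± 0.08, adjusted p = 0.27).

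*Calca* showed no common direction by sex, being higher in the female after sham and lower after CCI (log2 -0.20 ± 0.82, adjusted p = 1). The value rested on the few cells with much *Calca*: without cells at 10 CP10K or more, the log2 difference was 0.51 ± 0.08 with an adjusted p of 0.00016, a choice made on the same gene and after seeing the data. Whether the response to CCI differed between sexes could not be tested, as each sex had 1 library per surgery. By sex, *Piezo2* changed by 0.42 in males and 0.60 in females, and *Th* by 0.01 and -0.22.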

How the data were processed

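Single-cell libraries were made with 10x chemistry from sorted DRG cells, and the authors deposited filtered matrices of raw UMI counts per gene and cell, aligned to mm10; the submitters' processing notes name Cell Ranger 2.1.1 and Seurat. Counts of 31053 genes in 4 libraries (195684124 to 237069156 UMIs deposited each) were used as they stood. Cells were filtered and chosen as described, and counts were summed over the chosen cells of each library, since cells are not replicates. For CCI versus sham, p-values rest on the spread between 2 libraries per surgery, which includes the difference between sexes. Those for sex rest on the spread left after the surgery term. Those for the interactions rest on the sums of both sets of cells, with the library as a block. edgeR 4.0.16 in R 4.3.3 (filterByExpr, TMM, robust quasi-likelihood F test) gave the main tests, and DESeq2 1.42.0 was an alternative. Standard errors were the log2 change over the square root of F. The code was tested on simulated counts, where it recovered most changed genes except small changes against *Th*-low neurons, and false calls for CCI exceeded the nominal share. Doublets were scored with Scrublet in scanpy 1.11.5; its own threshold marked only 2, 121, 0 and 0 cells, so the highest scores were taken up to the number of doublets the study removed from each library. Thinning drew 5000 UMIs from each cell. Glia-dominated cells were those with more *Apoe* and *Fabp7* than neuronal UMIs. Alternatives changed the limits on *Th*, *Sprr1a*, markers and UMIs, doublets, glial RNA, cell numbers, normalization, filter, and each library. The members and gene lists were chosen with earlier results of these data known. Named were list members that were called or carry the described role; the 10 largest changes in each direction among called genes of at least 20 CPM that moved alike in both sexes; 5 each way for sex (outside *Xist* and Y genes, plus *Calca* and *Bhlha9*) and for interactions; and 15 highest and 10 lowest ratios of level. A few genes are not reported here.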

Additional observations from a re-analysis of the deposited data

Results flagged for a closer look

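Results are listed here where the change after CCI in the *Th*-high cells differed, by an interaction term, from that in another set of neurons of the same libraries. Against other *Sprr1a*-low neurons, 83 genes differed. The signed log2 change was higher in the *Th*-high cells by 1.34 for *Kif23*, 1.19 for *Bmp15* and 0.87 for *Prss23*. It was lower, with differences of -5.56 for *Cx3cr1*, -4.85 for *Anxa1*, -3.22 for *Fam210b* and -2.98 for *Ddr2*, all of them weakly expressed in the *Th*-high cells. Against *Th*-low neurons, 31 genes differed. The differences were 1.83 for *Xlr3b*, 1.60 for *Bex1*, 1.04 for *Bmp15*, 0.99 for *Smim5* and 0.84 for *Calca*. They were -5.49 for *Anxa1*, -2.34 for *Serpinb1a*, -2.31 for *Bcl3*, -2.18 for *Epn3* and -2.10 for *S100a16*. For *Calca* the log2 change was -1.20 in the *Th*-high cells, not past the test (adjusted p = 0.5, edgeR), and -1.97 in the *Th*-low neurons.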

How the results depend on the processing

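The count of 192 genes called after CCI was 74 with DESeq2 (125 of the 192 genes had no adjusted p there), 118 in cells with *Th* at 5 CP10K or more, 345 without a filter on low counts and 127 with shared barcodes left out, a choice made after seeing the data. It ranged from 43 (without Female-CCI) to 340 (without Male-Sham). With sex as a replicate block, 139 were called, 48 higher and 91 lower, and among the named genes *Usmg5* (adjusted p = 0.051), *Trpv1*, *Penk*, *Osmr*, *Flrt3*, *Rpl41*, *Rps28* and *Parp14* were no longer called; the labels tie no male library to a female one beyond shared litters. With doublets removed, 192 were called, of which 114 were the same genes. For the sex comparison, the fits with 1 library left out also had no term for surgery. The count of 10 by sex was 33 without *Calca*-rich cells, 20 with the higher *Th* limit, 33 with doublets removed, 37 with equal cell numbers, 54 without the filter, 22 without a limit on *Sprr1a*, 5 without a term for surgery and 16 without shared barcodes, and ranged from 3 to 54 when 1 library was left out. The count of 83 against other neurons was 259 in cells with 0 *Sprr1a* UMIs, 147 with the higher *Th* limit, 320 without the filter, 186 without shared barcodes and 0 with the other neurons drawn to the number of chosen cells, where 82 of the 83 genes kept their direction, and ranged from 14 (without Female-CCI) to 274 (without Male-Sham). The count of 31 against *Th*-low neurons was 53 without the filter and 21 with 0 *Sprr1a* UMIs (4 shared), and ranged from 38 to 62 when 1 library was left out. The direction turned for *Penk* after CCI with doublets removed (0.40), for *Calca* by sex without *Calca*-rich cells (0.51), for *Calca* against *Th*-low neurons with 0 *Sprr1a* UMIs (-1.18), for *Calca* by sex over libraries left out (-1.35 to 0.79) and for *Cx3cr1* against other neurons (-5.78 to 0.61). The causes were not tested. The difference in the share of all neurons or cells stayed between -5.61 and -2.16 points, but it was -0.859 points as a share of *Sprr1a*-low neurons. The 67 cells of Male-CCI limit depth most.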

Other observations

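A few further genes known to be induced by interferon were looked up after their values were seen, with no list behind them, so nothing is said of the group. *Usp18*, which removes ISG15 from proteins, was at 1.79, 2.20, 6.10 and 11.3 CPM (log2 2.14 ± 0.30, edgeR adjusted p = 0.00066). *Gbp7*, a guanylate-binding protein gene, was at 6.61, 8.15, 13.7 and 12.8 CPM (0.80 ± 0.18, adjusted p = 0.014), and *Parp14* at 0.389, 0.697, 1.71 and 3.04 CPM (2.1 ± 0.53, adjusted p = 0.027). *Usp18* was no longer called without Female-CCI. *Gbp7* and *Parp14* were also no longer called in cells with 0 *Sprr1a* UMIs, with the higher *Th* limit and without shared barcodes, and *Parp14* with the replicate block, equal cell numbers or doublets removed. *Isg15* (0.98, adjusted p = 0.11) and *Ifit1* (1.72 ± 0.78, adjusted p = 0.45) did not pass the test. In other neurons of the same libraries *Usp18* changed by 2.24, *Gbp7* by 1.08 and *Parp14* by 1.36. The nuclear RNA *Malat1*, at 6231, 6695, 8649 and 10612 CPM, was also called higher (0.55 ± 0.09, adjusted p = 0.0082). Its call was lost without *Calca*-rich cells, with the higher *Th* limit, equal cell numbers or shared barcodes left out, and without Female-CCI or Male-Sham.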
